A study of Mus musculus with 16 samples.

Results

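Kidney cortex taken after 2 weeks of treadmill running was compared with cortex taken after 1 week, over every gene with enough counts in an RNA-sequencing table. Both groups were wild-type male mice of the inbred strain C57BL/6J that were forced to run for 40 minutes at 70% of capacity, and they differed in the labels only by duration, 2 wk against 1 wk. Each group had 4 libraries, 8 of the 16 in the series, and 16126 of the 55414 genes in the table passed the filter on low counts. The other 8 libraries, from mice of the same strain and sex that were kept sedentary or had run for 1 day (the 24 h group), entered the fit to estimate the spread and are given as reference levels. The labels state neither the age of the mice nor how long after the final run tissue was taken. Nor do they say whether libraries of a group are different animals, and the p-values then describe the spread between libraries only, which may be partly technical. The series sets out to relate the diuresis that follows a rise in blood pressure, and the kidney's immune cells, to exercise.

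The cortex holds the glomeruli, which filter the blood, and the proximal tubules, which reclaim most of the filtered salt, glucose and amino acids. The distal nephron fine-tunes what is left: the distal convoluted and connecting tubules take up sodium and calcium, principal cells of the collecting duct take up sodium through the epithelial sodium channel and water through aquaporins, and intercalated cells move acid and base. The proximal tubule is also the main site where active vitamin D is made. In bulk tissue, more or fewer cells of a type and more or less RNA per cell cannot be told apart.

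No gene passed the adjusted threshold between 2 wk and 1 wk in edgeR, the test used throughout. EdgeR's quasi-likelihood test with Benjamini-Hochberg adjustment called 0 of 16126 genes at 0.05 (0%), with a lowest adjusted p of 0.237. At an unadjusted p under 0.05 there were 738 genes (4.58%), 462 higher at 2 wk (2.86%) and 276 lower (1.71%), where 5% of the genes tested would be 806. DESeq2 called 4 genes (0.0248%), Ints6 and Rbm15 higher and Gadd45g and Cyp27b1 lower at 2 wk, and voom with quality weights called 1 (0.0062%), Ints6. The values of these 4 genes are set out in full, since the calls differ between tools on nearly the same fold changes.

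The fit was narrow enough to bound most genes. Log2 fold changes had a median standard error of 0.144, and the 95% interval lay within a 2-fold difference in either direction for 14046 genes (87.1%) and within 1.5-fold for 10864 (67.4%). The median log2 fold change over all genes was 0.01, with 8434 genes (52.3%) above 0, and 104 genes had a fold change beyond 2 in either direction. In the same fit the other pairs of groups had between 975 and 1549 genes at an unadjusted p under 0.05, from 1 wk against sedentary to 2 wk against 24 h, so that 738 was the lowest count of the 6 pairs. These pairs share libraries and are given as counts only. With 1 library left out the count of 738 ran from 449 to 2785, and the other pairs were not recounted in those fits. Only 2 wk against 24 h had genes past the adjusted threshold, 2 of them.

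**Figure D1:**
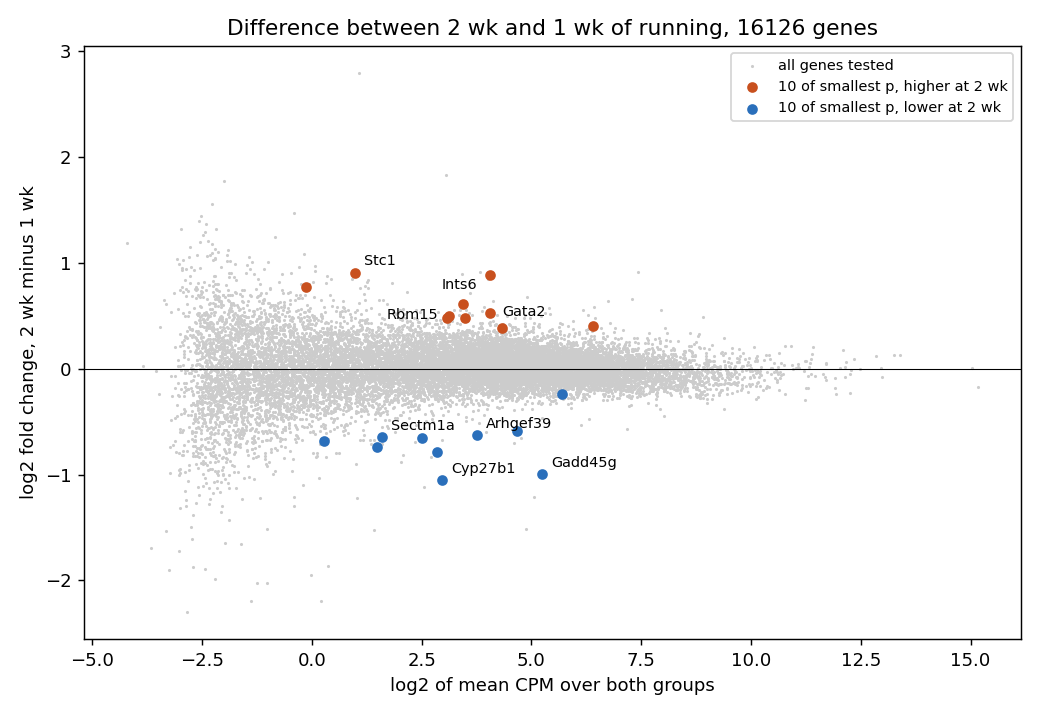
Log2 fold change (2 wk minus 1 wk) against the log2 of the mean CPM (counts scaled to library size) for each of the 16126 genes tested, with the 10 genes of smallest p in each direction coloured. Most genes lie near 0 at all but the lowest levels, and the coloured genes lie between -1.05 (Cyp27b1) and 0.91 (Stc1).

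Depth and the mitochondrial share overlapped between the groups. Total counts were between 43601621 and 66852397 per library at 2 wk and between 40785799 and 49314783 at 1 wk, and mitochondrial transcripts took between 2.99% and 4.24% against 2.66% to 4.1%. Of 13 mitochondrially encoded genes listed, 7 passed the filter on low counts, so this share may understate the mitochondrial RNA of the cortex. In a principal component analysis of the 8 libraries the groups overlapped on each of the leading 5 components, which carried 29%, 18.5%, 12.7%, 12.1% and 10.4% of the variance. Some of the 8 libraries stood apart in markers of tissue next to the cortex or of plasma cells. The third library at 1 wk had a summed urothelium marker level of 22.3 CPM, with 2.12 to 2.66 in the other 1 wk libraries and 0.266 to 5.07 at 2 wk, and a summed plasma cell marker level of 31.8 CPM, with 4.96 to 12.2 in the other 1 wk libraries. In the sedentary and 24 h libraries the urothelium sum reached 12.3 CPM. The plasma cell sum reached 68.7 CPM there, above that of the third 1 wk library. The first library at 2 wk had the lowest urothelium sum of the 8 and 13.9 CPM of Cfd, an adipocyte product, where the other 2 wk libraries had 0.0593 to 0.704. Adrenal markers summed to 2.88 CPM in the first library at 1 wk and to between 0.302 and 0.509 in the other 7. The 7 skeletal muscle markers summed to at most 0.247 CPM in these libraries, and 0 passed the filter. With the third 1 wk and the first 2 wk library both left out, edgeR again called 0 genes, and 506 had an unadjusted p under 0.05.

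The promoters shown are those of the 2 named genes of smallest edgeR p in each direction, which are also the 4 genes that DESeq2 called. Each is 250 bases before to 50 bases after the annotated start, 5′ to 3′ on the gene's strand, from RefSeq on GRCm38.p6, in which all 4 genes were matched. Capitals mark matches on either strand to 5 motifs: the E-box CACGTG, the cAMP response element TGACGTCA, the TATA box TATAAA, the CCAAT box CCAAT and the GC box GGGCGG. The first 2 sequences belong to the genes that were higher at 2 wk, Ints6 at chr14:62761063-62761362 (minus strand) and Rbm15 at chr3:107333240-107333539 (minus strand). The others belong to the genes that were lower, Gadd45g at chr13:51846425-51846724 (plus strand) and Cyp27b1 at chr10:127047996-127048295 (plus strand).
Ints6: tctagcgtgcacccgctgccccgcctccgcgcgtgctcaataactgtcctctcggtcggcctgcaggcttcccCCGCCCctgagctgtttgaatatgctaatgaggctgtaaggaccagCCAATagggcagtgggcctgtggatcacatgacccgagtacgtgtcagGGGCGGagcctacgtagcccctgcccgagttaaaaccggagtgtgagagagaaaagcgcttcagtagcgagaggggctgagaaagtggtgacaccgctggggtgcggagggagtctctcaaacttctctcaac
Rbm15: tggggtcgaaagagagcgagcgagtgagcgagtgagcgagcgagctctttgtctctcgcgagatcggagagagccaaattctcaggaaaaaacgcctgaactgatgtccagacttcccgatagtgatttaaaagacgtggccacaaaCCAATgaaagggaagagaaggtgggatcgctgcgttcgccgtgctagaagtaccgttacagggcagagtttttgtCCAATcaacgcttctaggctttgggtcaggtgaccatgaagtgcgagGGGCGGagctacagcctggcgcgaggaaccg
Gadd45g: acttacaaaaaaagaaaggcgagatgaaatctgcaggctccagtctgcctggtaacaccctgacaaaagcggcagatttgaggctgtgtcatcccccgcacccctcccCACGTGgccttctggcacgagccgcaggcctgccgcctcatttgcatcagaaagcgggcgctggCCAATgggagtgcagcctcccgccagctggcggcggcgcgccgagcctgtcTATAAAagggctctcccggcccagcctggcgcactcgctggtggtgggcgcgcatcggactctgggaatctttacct
Cyp27b1: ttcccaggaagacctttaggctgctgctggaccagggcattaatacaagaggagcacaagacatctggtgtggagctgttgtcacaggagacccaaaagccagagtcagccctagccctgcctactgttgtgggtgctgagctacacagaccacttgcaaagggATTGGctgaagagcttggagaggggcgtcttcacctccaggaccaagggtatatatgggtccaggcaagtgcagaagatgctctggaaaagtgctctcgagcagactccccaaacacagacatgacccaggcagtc

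Ints6 and Rbm15 both held CCAAT boxes and GC boxes in this window. In Ints6 the GC boxes lay at -177 (opposite strand) and -83 and the CCAAT box at -131, counted from the annotated start, and in Rbm15 the CCAAT boxes lay at -103 and -28 and the GC box at 19. Gadd45g held an E-box at -142, a CCAAT box at -78 and a TATA box at -27, and Cyp27b1 held a CCAAT box on the opposite strand at -86. No cAMP response element was found in any of the 4 windows. Of 32851 promoters of this length, 37.4% held a CCAAT box, 35.7% a GC box, 13.6% a TATA box, 7.15% an E-box and 1.79% a cAMP response element, and no 2 matches overlapped in the sequences shown. The GC content was 60.0% in Ints6, 54.3% in Rbm15, 62.3% in Gadd45g and 54.3% in Cyp27b1, with a median of 52.7% over all promoters. A match is a description of the letters and not evidence of a bound factor.

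Ints6 had the smallest p. It encodes a subunit of Integrator, the complex that cleaves nascent RNA of small nuclear RNA genes and stops RNA polymerase II early on many others, and lies on chromosome 14 (62676330 to 62761169, GRCm38). Its levels were 12.9, 14.98, 12.7 and 12.3 CPM in the 4 libraries at 2 wk and 8.52, 7.58, 8.5 and 9.98 CPM at 1 wk. All 4 libraries at 2 wk also lay above the 4 sedentary (8.13 to 9.78 CPM) and the 4 libraries at 24 h (9.17 to 10.4 CPM). The log2 fold change was 0.61 ± 0.11 (SE; 95% interval 0.39 to 0.84; edgeR adjusted p = 0.237), from 8.64 ± 0.99 to 13.2 ± 1.22 CPM (SD, n = 4). The DESeq2 adjusted p was 0.000255 and that of voom 0.0472, and over 16 alternatives adjusted p ran from 0.000255 to 1 while the log2 fold change stayed between 0.54 and 0.68.

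Rbm15, an RNA-binding protein of the complex that writes N6-methyladenosine, stood second among the higher genes. Its levels were 10.4, 10.8, 9.55 and 10.2 CPM at 2 wk and 7.79, 6.78, 6.54 and 7.88 CPM at 1 wk, with no overlap. The sedentary libraries (8.19 to 9.57 CPM) lay above 1 wk and met the lowest 2 wk library at their upper end, and those at 24 h (9.01 to 10.8 CPM) overlapped with 2 wk. The log2 fold change was 0.50 ± 0.10 (SE; 95% interval 0.29 to 0.71; edgeR adjusted p = 0.447), and the DESeq2 adjusted p of 0.005 was the lowest of 16 alternatives, which reached 1. So the 1 wk libraries were the low group for Rbm15, whereas the 2 wk libraries were the high group for Ints6.

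Gadd45g, a small growth-arrest and stress protein gene on chromosome 13 (51846678 to 51848468), led the genes that were lower at 2 wk. Its levels were 21.2, 21.9, 23.9 and 33.9 CPM at 2 wk and 34.5, 59.4, 53.6 and 53.2 CPM at 1 wk. The groups were parted by a gap of less than 1 CPM between the fourth 2 wk and the first 1 wk library, and the sedentary libraries (21.7 to 25.2 CPM) lay with those at 2 wk. The 24 h libraries (18.2 to 35.9 CPM) overlapped with 2 wk, and 1 of them lay above the lowest 1 wk library. The log2 fold change was -0.99 ± 0.19 (SE; 95% interval -1.38 to -0.60; edgeR adjusted p = 0.339), a ratio of 0.503. The DESeq2 adjusted p of 0.00207 was the lowest of 16 alternatives, which reached 1.

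Cyp27b1, the enzyme that makes active vitamin D in the proximal tubule, had about the same ratio at a lower level. Its levels were 3.39, 5.96, 6.38 and 4.59 CPM at 2 wk and 7.34, 8.74, 12.8 and 13.6 CPM at 1 wk, with no overlap. The sedentary libraries (4.69 to 6.83 CPM) overlapped with 2 wk, and those at 24 h (6.97 to 14.2 CPM) overlapped with 1 wk. The log2 fold change was -1.05 ± 0.24 (SE; 95% interval -1.55 to -0.56; edgeR adjusted p = 0.868), and the DESeq2 adjusted p of 0.0341 was the lowest of 16 alternatives, which reached 1. Cyp24a1, which breaks active vitamin D down, had a log2 fold change of -0.53 ± 0.38 with overlapping groups, and -0.13 without the fourth 1 wk library. Of 12 genes of calcium, phosphate and vitamin D handling 8 were above 0 and 4 below, with a median of 0.06.

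**Figure D2:**
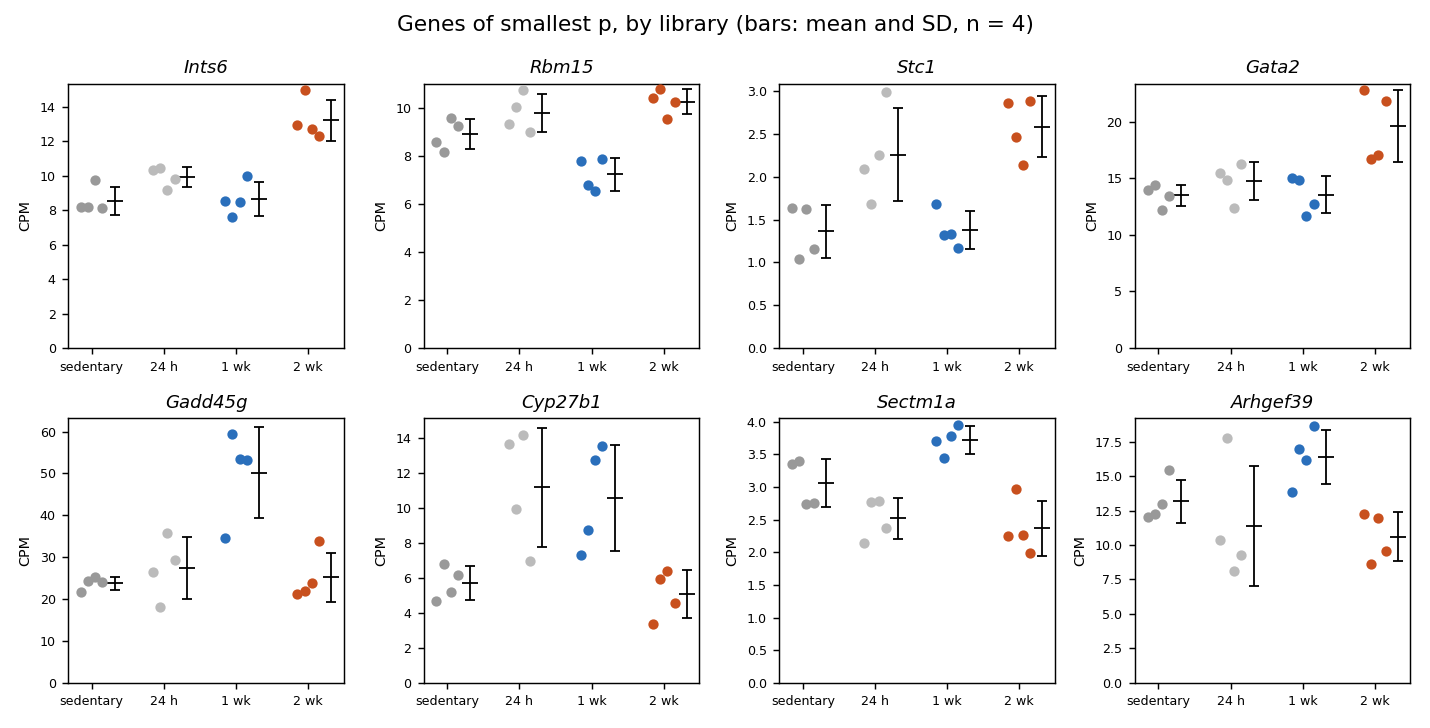
CPM in each library of the 4 groups for the 4 genes of smallest p in each direction, with the mean and SD (n = 4) beside the points. The 2 wk libraries of Ints6 lie above all others, and the 1 wk libraries of Gadd45g lie above the sedentary and 2 wk libraries, while the lowest of them lies below 1 library at 24 h.

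The other 8 of the 10 genes of smallest p that were higher at 2 wk each had an edgeR adjusted p of 0.868. Stc1, the secreted hormone stanniocalcin of calcium and phosphate handling, was at 2.86, 2.46, 2.13 and 2.88 CPM at 2 wk and 1.69, 1.32, 1.33 and 1.17 CPM at 1 wk, a log2 fold change of 0.91 ± 0.20. Gata2, a zinc-finger transcription factor of the collecting duct and endothelium, was at 22.8, 16.7, 17.03 and 21.9 CPM against 15.02, 14.8, 11.7 and 12.7 CPM (0.53 ± 0.12). Prok1, the secreted peptide prokineticin, was at 16.8, 31.8, 17.8 and 19.5 CPM against 16.2, 9.46, 9.55 and 11.3 CPM (0.89 ± 0.21). The sedentary libraries separated these 3 genes: they lay with 1 wk for Stc1 (1.04 to 1.64 CPM) and Gata2 (12.2 to 14.4 CPM), and above 1 wk for Prok1 (21.5 to 24.7 CPM). The other 5 were Scd2, a fatty acid desaturase (0.41 ± 0.10), Daam2, a formin (0.48 ± 0.12), Itga9, an integrin subunit (0.48 ± 0.12), P2rx7, an ATP-gated channel (0.77 ± 0.20), and Fem1c, a receptor subunit of a ubiquitin ligase (0.39 ± 0.10). Of the 10 genes 9 had groups that did not overlap, all but Itga9, where 150 genes in the whole table did so in this direction (0.93%). The 10 were chosen by p in the same contrast, so this count is a description.

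The remaining 8 genes of smallest p that were lower at 2 wk varied in how they stood to the other groups. Sectm1a was at 2.25, 2.96, 2.26 and 1.98 CPM at 2 wk and 3.71, 3.44, 3.78 and 3.95 CPM at 1 wk (log2 fold change -0.65 ± 0.15), with the 1 wk libraries also above those of sedentary mice (2.74 to 3.4 CPM) and 24 h (2.15 to 2.78 CPM). Arhgef39 was at 12.3, 8.63, 11.98 and 9.6 CPM against 13.8, 16.9, 16.2 and 18.6 CPM (-0.63 ± 0.19), and its sedentary (12 to 15.5 CPM) and 24 h libraries (8.15 to 17.8 CPM) overlapped with both groups. Myc, the growth transcription factor, was at 4.6, 6.86, 4.33 and 5.4 CPM against 4.26, 9.44, 10.3 and 12.8 CPM (-0.79 ± 0.24), so that the first 1 wk library was the lowest of the 8 and the groups overlapped. Sedentary levels of Myc were 4.97 to 5.65 CPM. The remaining genes were Spsb2 (-0.24 ± 0.07), Neurog2 (-0.74 ± 0.23), Csrnp1 (-0.65 ± 0.21), C2cd4d (-0.69 ± 0.22) and Rhov (-0.59 ± 0.19), each at an edgeR adjusted p of 0.868. Of the 10 lower genes 5 had groups that did not overlap, beside 106 genes in the whole table (0.657%), so that 256 genes (1.59%) did so in either direction. Of the 20 genes 3 overlap another tested gene in the annotation, Csrnp1, Itga9 and Spsb2, and their reads may be shared with it. For Itga9 and Spsb2 the other gene lies on the opposite strand, and no source used here gives the strand setting of the counting. For Csrnp1 the other gene, Cx3cr1, lies on the same strand.

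Genes of the distal nephron lay mostly on the higher side at 2 wk, and none passed the edgeR test after adjustment. For intercalated cell markers 11 of 11 genes had a log2 fold change above 0, with a median of 0.19, and for principal cells 9 of 10, with a median of 0.21. For the distal convoluted and connecting tubule it was 8 of 10 with a median of 0.14, and for the kinases and ligases that regulate distal sodium transport 8 of 8 with a median of 0.18. At an unadjusted p under 0.05, 2 intercalated, 3 principal, 2 distal convoluted or connecting tubule and 0 kinase or ligase genes were higher, and 0 genes of these lists were lower, beside 2.86% and 1.71% of all genes. Medians moved by over 1.5 times when 1 library was left out: between 0.09 (without the fourth 2 wk library) and 0.32 (without the second) for principal cells, between 0.12 and 0.24 for intercalated cells (lowest without the third 1 wk library), and between 0.07 and 0.24 for the distal convoluted and connecting tubule (lowest without the first and highest without the second 1 wk library). The kinases and ligases ran from 0.11, without the third 1 wk library, to 0.23. For each of these lists the mean log2 CPM per library overlapped between the groups. In the distal convoluted and connecting tubule list the second 2 wk library was the lowest of both groups, at -0.30 log2 units from their mean.

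Foxi1, the transcription factor that specifies intercalated cells, was at 43.4, 28.0, 30.8 and 33.0 CPM at 2 wk and 25.1, 24.5, 21.1 and 24.2 CPM at 1 wk. The groups did not overlap, and the sedentary libraries were lower than both (17.2 to 20.5 CPM). The log2 fold change was 0.51 ± 0.13 (95% interval 0.23 to 0.79; edgeR adjusted p = 0.868), and 0.36 without the first 2 wk library. Insrr, a receptor that senses alkaline pH, was at 21.7, 18.3, 14.5 and 22.8 CPM against 14.1, 14.5, 11.1 and 17.1 CPM (0.44 ± 0.18), and the anion exchanger Slc4a9 had a log2 fold change of 0.33 ± 0.17. Insrr and Slc4a9 overlapped between the groups.

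The epithelial sodium channel, the aldosterone-regulated channel of principal cells, is built from 3 subunits, and each had a mean that was higher at 2 wk with overlapping groups. Scnn1a was at 159.8, 135, 118 and 165 CPM at 2 wk and 122, 115, 104 and 132 CPM at 1 wk (0.29 ± 0.12). Scnn1b was at 63.2, 41.9, 45.4 and 59.9 CPM against 39.1, 47.8, 40.9 and 38.7 CPM (0.34 ± 0.14). Scnn1g was at 48.5, 38.8, 41.3 and 55.9 CPM against 35.7, 45.3, 38.4 and 36.6 CPM (0.24 ± 0.11). The same 2 libraries, the first and the fourth at 2 wk, carried the highest level of all 3 subunits. Hsd11b2, which protects the mineralocorticoid receptor from glucocorticoids, showed that order too, with 296, 169, 194 and 262 CPM against 184, 206, 189 and 150.2 CPM (0.34 ± 0.15). Each of these 4 genes had an edgeR adjusted p of 0.868.

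Slc8a1, the sodium-calcium exchanger on the blood side of connecting tubule cells, was at 123, 83.8, 85.6 and 116 CPM at 2 wk and 59.9, 78.5, 54.1 and 80.9 CPM at 1 wk. Its groups did not overlap, and the log2 fold change was 0.58 ± 0.18 (95% interval 0.20 to 0.96; edgeR adjusted p = 0.868). Trpv5, the calcium channel on the urine side of the same cells, had 17.3, 11.53, 13.4 and 15.8 CPM against 8.28, 12.4, 9.27 and 13.9 CPM (0.40 ± 0.19). Pvalb, a calcium-binding protein of the early distal convoluted tubule, had a log2 fold change of -0.38 ± 0.21, and Slc12a3, the thiazide-sensitive sodium chloride cotransporter, one of 0.18 ± 0.14. Sgk1, the aldosterone-induced kinase, had 0.57 ± 0.29, with 78.3 CPM in the fourth 2 wk library and 32.1 to 53.4 CPM in the other 3. Wnk1 and Nedd4l, a kinase and a ubiquitin ligase that act on these transporters, had 0.27 ± 0.14 and 0.17 ± 0.10.

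**Figure D3:**
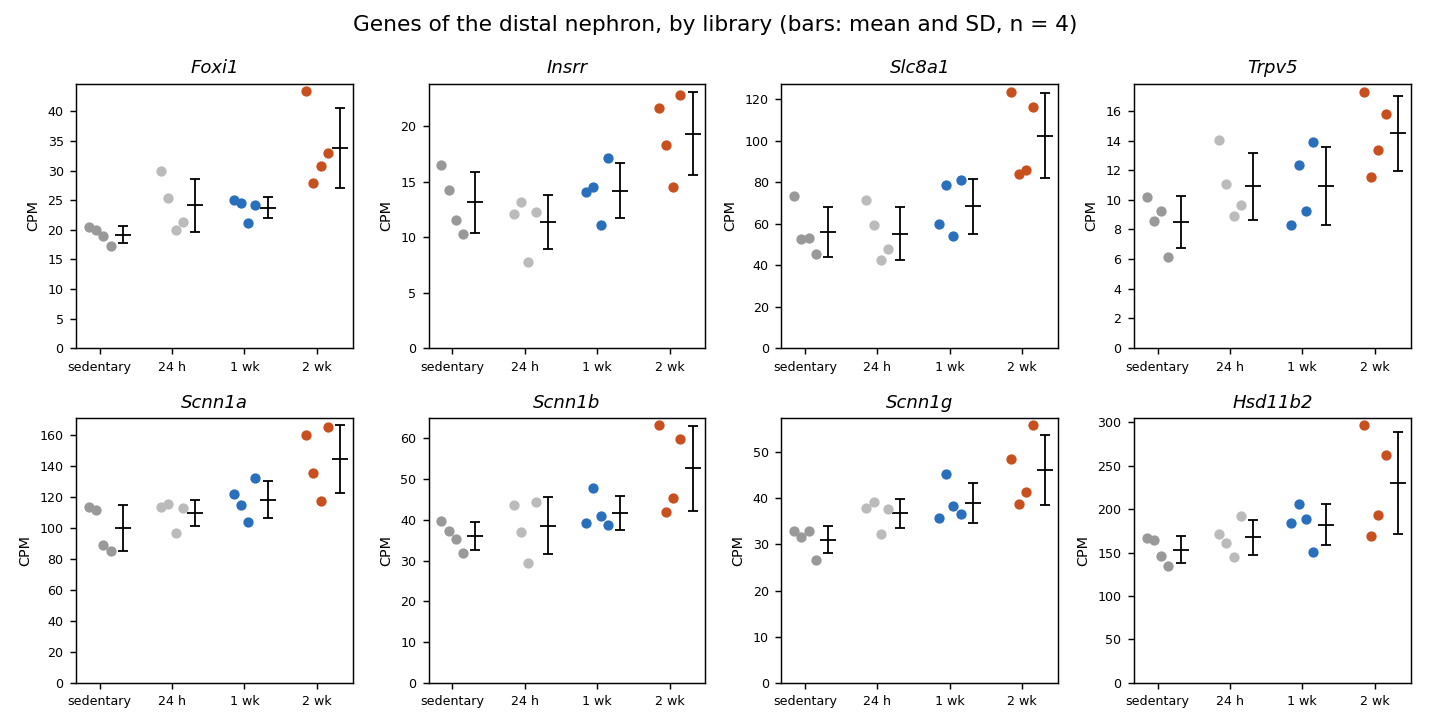
CPM in each library of the 4 groups for 8 genes of intercalated cells, the connecting tubule and principal cells, with the mean and SD (n = 4) beside the points. The 2 wk means lie highest in each panel, and the 2 wk and 1 wk libraries overlap except for Foxi1 and Slc8a1.

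Medians of the proximal tubule and thick ascending limb lists lay between -0.05 and 0.10, while podocyte markers, given below, had one of 0.14. Markers of the convoluted proximal tubule had a median of 0.10 with 9 of 10 above 0, among them the endocytic receptors Cubn (0.25 ± 0.13) and Lrp2 (0.22 ± 0.15). Without the second 2 wk library the median was 0.03, Cubn 0.15 and Lrp2 0.08. The median was 0.19 without the fourth 1 wk library, so its range overlapped with those of the distal nephron lists. The straight proximal tubule had a median of 0.02 (3 of 5 above 0) and the thick ascending limb one of -0.05 (1 of 6 above 0). Slc12a1, the cotransporter that defines the thick ascending limb, had -0.13 ± 0.21, with 183 CPM in the first 2 wk library and 350 to 460 CPM in the other 3. Slc9a3, the sodium-hydrogen exchanger of the proximal tubule, had -0.11 ± 0.15, with 135 CPM in the fourth 1 wk library and 73.8 to 82.7 CPM in the other 3. Over 14 sodium transport genes the median was 0.06, with 8 above 0 and 6 below. The 3 at an unadjusted p under 0.05 were the channel subunits, all higher, beside 2.86% of all genes in that direction. No marker of the proximal tubule or the thick ascending limb had an unadjusted p under 0.05, beside 4.58% of all genes in either direction. Amino acid carriers had a median of 0.07 (8 of 9 above 0) and organic ion and drug carriers one of 0.03 (9 of 15), with the exporter Abcc4 at 0.35 ± 0.17. Without the second 2 wk library the amino acid carriers had a median of -0.06 and Abcc4 was at 0.14.

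Vessels and signals that act on them were also on the higher side, without a call. Smooth muscle and mesangial markers were above 0 in 10 of 10 cases (median 0.21), endothelial markers in 10 of 11 (0.19) and podocyte markers in 7 of 10 (0.14). Lmod1, an actin-nucleating protein of smooth muscle, was at 3.68, 2.85, 2.01 and 2.84 CPM at 2 wk and 1.91, 1.22, 2.12 and 1.73 CPM at 1 wk, a log2 fold change of 0.71 ± 0.20 with overlapping groups. Myh11, the smooth muscle myosin heavy chain, had 0.52 ± 0.25, with 18.6 and 20.5 CPM in the first and the fourth 2 wk library and 7.04 and 10.6 CPM in the others. Cdh5, the endothelial cadherin, had 0.25 ± 0.12. At an unadjusted p under 0.05 there was 1 smooth muscle gene, Lmod1, and 1 endothelial gene, Cdh5, both higher at 2 wk, and 0 podocyte genes, beside 2.86% of all genes in that direction. Cdh5 was at 0.13 without the fourth 2 wk library. Leaving out 1 library took the smooth muscle median between 0.17 and 0.41 (highest without the third 1 wk library), the endothelial one between 0.08 (without the fourth 2 wk library) and 0.26, and the podocyte one between -0.05 (without the second 2 wk library) and 0.25 (without the third).

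Genes of endothelin, prostaglandin, nitric oxide and natriuretic peptide signalling, which set renal blood flow and sodium excretion, had 14 of 17 tested members above 0 and a median of 0.15, which was 0.06 without the fourth 2 wk library. The list also held the dopamine genes Drd1 and Ddc. Ptges, a prostaglandin E synthase, was at 35.0, 19.8, 25.5 and 27.7 CPM at 2 wk and 19.7, 21.2, 22.8 and 18.7 CPM at 1 wk (0.39 ± 0.13). Ece1, which activates endothelin, had 0.33 ± 0.15, and the endothelin receptor Ednrb 0.33 ± 0.16. The renin-angiotensin system had 6 of 9 tested members above 0 and a median of 0.13, which was 0.01 without the fourth 1 wk library. Ren1, which encodes renin, was at 129, 56.7, 61.3 and 101 CPM at 2 wk and 98.2, 90.5, 63.0 and 50.3 CPM at 1 wk, and its log2 fold change of 0.21 ± 0.30 had an interval of -0.44 to 0.85. Ace, the angiotensin-converting enzyme, had 0.16 ± 0.16.

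**Figure D4:**
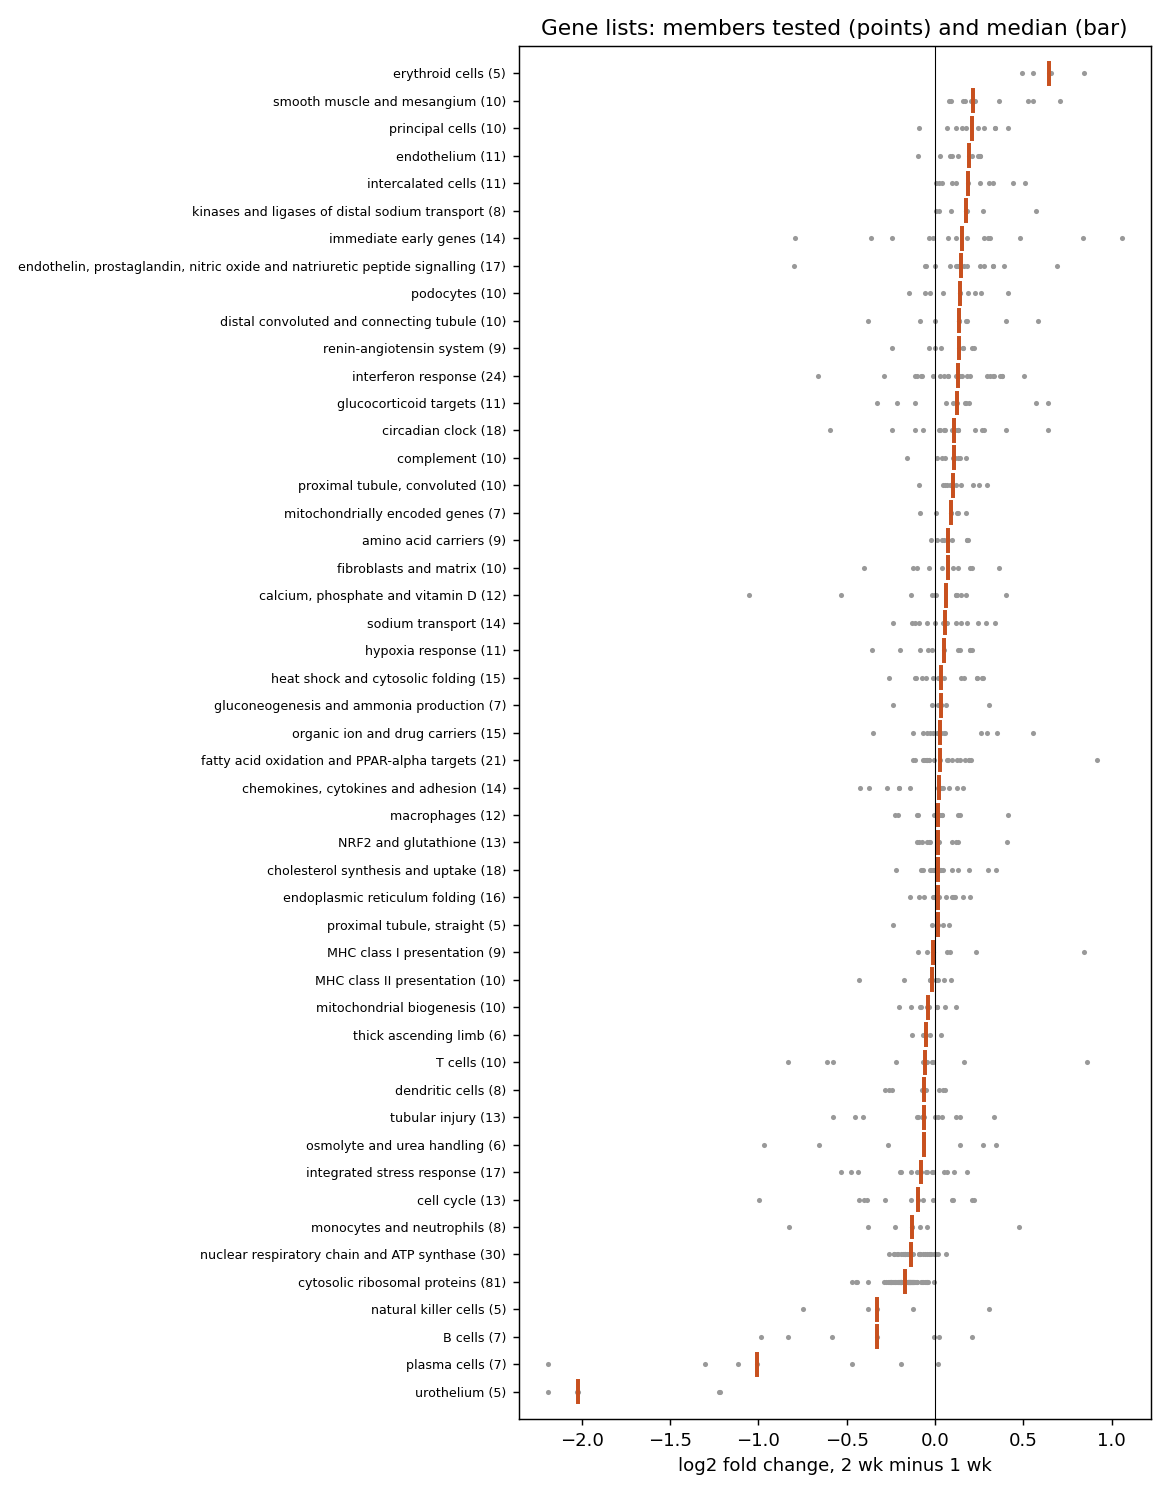
Log2 fold change (2 wk minus 1 wk) of each tested member (points) and the median (bars) of the gene lists with at least 5 tested members, the number tested in brackets. Distal nephron, vascular and erythroid lists have medians between 0.14 and 0.64, and those of ribosomal proteins, plasma cells and urothelium lie at -0.17, -1.01 and -2.02.

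Leukocyte lists had medians below 0 at 2 wk except for macrophages, and several of these medians came near 0 without the third 1 wk library. Lymphocyte markers were low, with T cell marker sums of 4.68 to 6.38 CPM over the 8 libraries. Macrophage markers had a median of 0.02 with 7 of 12 tested members above 0, and Adgre1, which encodes F4/80, had 0.04 ± 0.27, with 2.12 to 3.17 CPM at 2 wk and 1.77 to 3.42 CPM at 1 wk. T cell markers had a median of -0.06 with 2 of 10 above 0, and the pair of smallest p lay in opposite directions. Cd3e, which anchors the T cell receptor, was at 0.242, 0.37, 0.338 and 0.448 CPM at 2 wk and 0.111, 0.185, 0.255 and 0.222 CPM at 1 wk (0.86 ± 0.36), with overlap. Cd4, the helper T cell coreceptor that some myeloid cells also carry, was at 0.267, 0.326, 0.338 and 0.256 CPM against 0.399, 0.536, 0.664 and 0.544 CPM (-0.83 ± 0.39), with no overlap. The lowest of the 8 libraries had 5 counts of Cd3e and 11 of Cd4, so counting error is a large share of both values.

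Monocyte and neutrophil markers had a median of -0.13 with 1 of 8 tested members above 0. Dendritic cell markers had a median of -0.06 (3 of 8 above 0) and natural killer cell markers one of -0.33 (1 of 5). B cell markers had a median of -0.33 with 2 of 7 above 0, and plasma cell markers one of -1.01 with 1 of 7. Without the third 1 wk library the B cell median was -0.01, while the plasma cell median was nearer 0 but still -0.30. With the first 2 wk library left out as well they were 0.08 and -0.45. Without the third 1 wk library alone, the natural killer cell median was -0.04 and that of monocytes and neutrophils -0.01. Igkc, the immunoglobulin kappa constant region, stood at 20.3 CPM in that library and at 2.58 to 5.06 CPM in the other 1 wk libraries. Immunoglobulin genes have near-identical copies, so their values are uncertain. MHC class II presentation genes had a median of -0.02 (4 of 10 above 0), MHC class I genes one of -0.01 (4 of 9), interferon response genes one of 0.13 (17 of 24), complement genes one of 0.11 (9 of 10) and chemokine, cytokine and adhesion genes one of 0.02 (8 of 14). The complement median was -0.04 without the second 2 wk library. At an unadjusted p under 0.05, 0 genes of these 5 lists were higher or lower, beside 2.86% and 1.71% of all genes.

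Erythroid markers were higher at 2 wk in 5 of 5 tested cases, with a median of 0.64. Alas2, the enzyme that starts heme synthesis in red cell precursors, was at 20.2, 16.1, 14.3 and 32.7 CPM at 2 wk and 6.17, 10.4, 18.5 and 11.4 CPM at 1 wk (0.84 ± 0.29; edgeR adjusted p = 0.868). Hba-a1, an alpha-globin gene with a near-identical copy, had 131 to 314 CPM at 2 wk and 70.2 to 210.1 CPM at 1 wk (0.66 ± 0.33). The groups overlapped for both, because the third 1 wk library lay among the 2 wk libraries. The median was 0.30 without the fourth 2 wk library, which had the highest erythroid sum of the 8 (1632 CPM), and 1.06 without the third 1 wk library.

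Urothelium markers had a median of -2.02 with 0 of 5 above 0, at levels set by single libraries. Upk3a, a protein of the urothelial plaque, was at 6.18 CPM in the third 1 wk library and at 0.391 to 0.625 CPM in the other 1 wk libraries, and the median was -0.23 without that library. Adipocyte markers had a median of 0.59 over 4 tested members and 0.01 without the first 2 wk library. Fibroblast and matrix markers had a median of 0.07 with 6 of 10 above 0, which was -0.02 without the first 1 wk library and 0.24 without the third. What part the makeup of the cortex pieces had in the values of other genes was not tested.

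Protein synthesis and respiratory chain genes lay on the lower side at 2 wk. Of 81 tested cytosolic ribosomal proteins 81 had a log2 fold change below 0, with a median of -0.17. Of these, 2 had an unadjusted p under 0.05, beside 1.71% of all genes in that direction, and 0 passed after adjustment by edgeR. The 81 genes moved together from library to library: their mean deviation from the 8 libraries was 0.10, -0.33, 0.00 and -0.11 log2 units at 2 wk and 0.12, 0.16, 0.38 and -0.32 at 1 wk, so that the groups overlapped. Without the third 1 wk library the median was -0.06, and without the fourth it was -0.30. Rpl12 was at 280.1, 209, 205 and 179.5 CPM at 2 wk and 312, 299.8, 363 and 212 CPM at 1 wk (-0.44 ± 0.15). Ribosomal protein genes have many processed copies, so single members are uncertain.

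Nuclear genes of the respiratory chain and ATP synthase had 27 of 30 members below 0, with a median of -0.13. Of these members 0 had an unadjusted p under 0.05, beside 4.58% of all genes in either direction. Their deviations followed the ribosomal ones, and the median was -0.04 without the third 1 wk library and -0.24 without the fourth. Cycs, which encodes cytochrome c, had -0.23 ± 0.12. Mitochondrially encoded genes, of which 7 of 13 passed the filter, lay on the other side. They had 6 of 7 tested members above 0 and a median of 0.09, and mt-Nd4 had 0.17 ± 0.17. The median was 0.01 without the first 1 wk library, and mt-Nd4 was at 0.03 without the first 2 wk library. Genes of mitochondrial biogenesis had a median of -0.04 with 4 of 10 above 0.

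**Figure D5:**
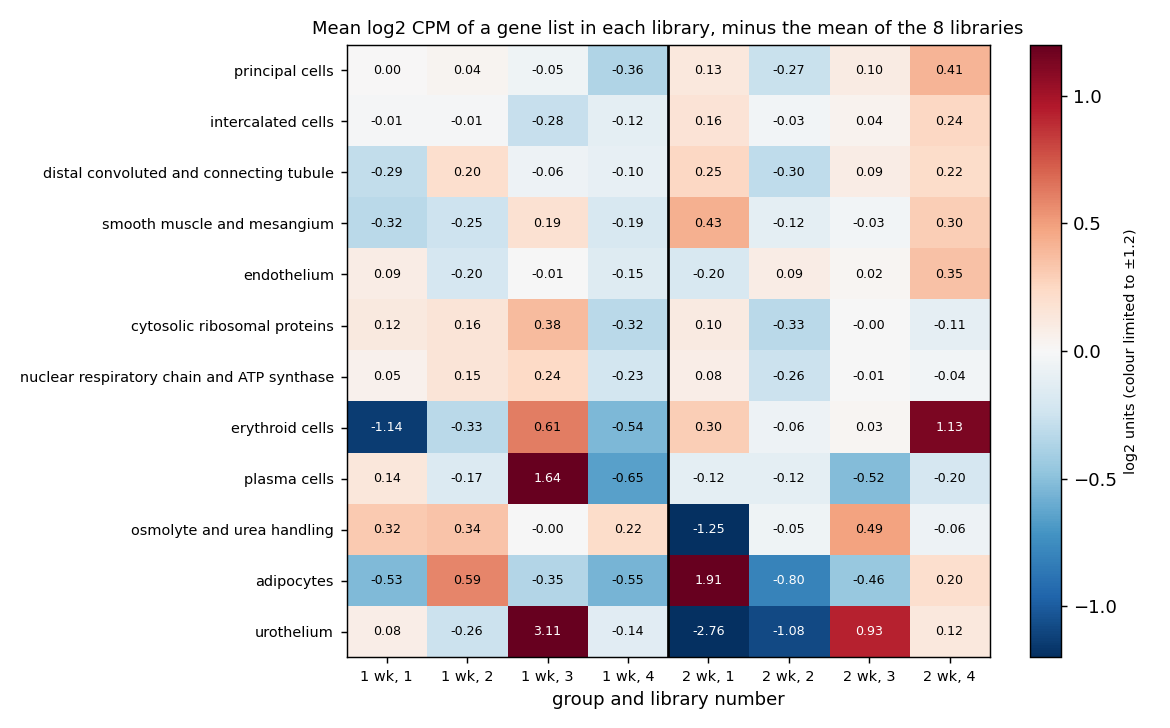
Mean log2 CPM of each gene list in each library minus its mean over the 8 libraries, in log2 units, with 1 wk libraries left and 2 wk libraries right of the line. The third 1 wk library has 3.11 for urothelium and 1.64 for plasma cells, and the ribosomal and respiratory chain lists vary in step, from 0.38 and 0.24 in the third 1 wk library to -0.33 and -0.26 in the second 2 wk library.

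Stress and metabolic programmes had medians between -0.08 and 0.05. Integrated stress response genes, which act when amino acids or protein folding fall short, had 13 of 17 tested members below 0 and a median of -0.08. At an unadjusted p under 0.05, 3 of them were lower and 0 higher, beside 1.71% and 2.86% of all genes. With 1 library left out the median stayed between -0.13 and -0.03. Asns, asparagine synthetase, was at 4.99, 3.79, 3.63 and 4.48 CPM at 2 wk and 4.19, 6.3, 8.07 and 5.83 CPM at 1 wk (-0.53 ± 0.17), with overlap through the first 1 wk library. Atf5 and Nupr1, transcription regulators of the same response, had -0.20 ± 0.09 and -0.47 ± 0.22. Endoplasmic reticulum folding genes had a median of 0.02 (11 of 16 above 0), heat shock genes 0.03 (9 of 15), cholesterol synthesis genes 0.02 (10 of 18), NRF2 and glutathione genes 0.02 (7 of 13) and hypoxia response genes 0.05 (6 of 11). Fatty acid oxidation genes had 0.03 (11 of 21), within which the PPAR-alpha target Cyp4a14 ranged from 33.5 to 361 CPM at 2 wk and from 44.9 to 240.4 CPM at 1 wk (0.92 ± 0.76).

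Injury markers overlapped between the groups and none was called, where 1.59% of all genes did not overlap and 0 were called by edgeR. Of the 13 injury genes 0 had an unadjusted p under 0.05, beside 4.58% of all genes. Havcr1, the proximal tubule injury marker KIM-1, had -0.41 ± 0.66, with 10.7 CPM in the third 1 wk library and 2.15 to 3.3 CPM in the other 3. Lcn2, which encodes NGAL, had -0.58 ± 0.41, and -0.02 without the third 1 wk library. Over 13 tubular injury genes the median was -0.06 (5 above 0) and it was 0.13 without the third 1 wk library. Osmolyte and urea handling genes had a median of -0.06 (3 of 6 above 0), within which the betaine carrier Slc6a12 had -0.97 ± 0.43 and the aldose reductase Akr1b3 -0.27 ± 0.12. At an unadjusted p under 0.05, 2 genes of this list were lower and 0 higher, beside 1.71% and 2.86% of all genes. The first 2 wk library had the lowest mean of this list, at -1.25 log2 units from the mean of both groups. Without that library the median was 0.03 and Slc6a12 was at -0.69. Without the third 2 wk library Slc6a12 was at -1.67 and Akr1b3 at -0.42. Cell cycle genes had a median of -0.10 (4 of 13 above 0), with Ccnb2, a mitotic cyclin, at -0.998 ± 0.347 from a mean under 1 CPM in both groups.

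Clock and early-response genes had members on both sides of 0. Clock genes had a median of 0.11 with 14 of 18 above 0, which was -0.02 without the third 1 wk library. Per1, a light- and glucocorticoid-induced clock gene, was at 16.2, 16.6, 14.5 and 37.8 CPM at 2 wk and 19.3, 10.9, 9.7 and 14.9 CPM at 1 wk, so its log2 fold change of 0.64 ± 0.27 came with 1 library far above the rest. Ciart, a repressor of the clock, had -0.60 ± 0.26, and the core clock genes Nr1d1 and Arntl had 0.13 ± 0.18 and 0.40 ± 0.27. Immediate early genes had a median of 0.15 with 9 of 14 above 0, with Btg2, an antiproliferative factor, at 0.31 ± 0.12 and Nr4a1, a nuclear receptor, at 0.48 ± 0.23, beside the lower value of Myc. Glucocorticoid targets had a median of 0.13 with 8 of 11 above 0, which was -0.10 with both libraries that stood apart in markers left out.

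Across the 52 gene lists edgeR called 0 members, and the medians lay between -0.17 and 0.21 apart from 6 lists of erythroid, adipocyte, natural killer, B, plasma and urothelium markers and the single adrenal gene tested. Of the 51 lists with a tested member, 26 had a median that crossed 0 when 1 library was left out and 10 had one that crossed 0 under voom. Those 10 were the lists of dendritic cells, both MHC classes, chemokines, mitochondrial biogenesis, endoplasmic reticulum folding, heat shock, cholesterol synthesis, NRF2 and fatty acid oxidation, all with medians near 0. Under relative log expression scaling and DESeq2, 0 list medians crossed 0.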

How the data were processed

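PolyA RNA of kidney cortex was sequenced from 16 libraries in 4 groups of 4. The deposited values are raw counts for each gene, made by the authors with HTSeq 0.10.0 on GRCm38 (mm10) after FastQC 0.10.1, per the submitters' processing notes; the aligner, annotation release and strand setting were not given in the sources used here. Of its 24 columns of counts, 8 match no sample and were not used. Symbols and positions came from GENCODE M21, in which 52133 IDs (94.1%, with 99.4% of counts) have a name.

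Genes passing filterByExpr were fitted with edgeR 4.0.16 in R 4.3.3 on all 16 libraries (TMM, robust quasi-likelihood F-test, Benjamini-Hochberg over 16126 genes, threshold 0.05). DESeq2 1.42.0, limma 3.58.1 voom, other scalings and filters, 8 libraries alone, a replicate block and leaving out libraries were alternatives. CPM are TMM-scaled; log2 CPM used a prior count of 2. Values after ± are SD for CPM and SE for log2 fold changes.

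Named were the 10 genes of smallest p in each direction that had a symbol other than a clone name and averaged 0 or more on the log2 CPM scale, 10 genes always, and up to 3 members of smallest p per list. Members and lists were chosen with earlier results of these data known. Gene lists are described by counts and medians and were given no test of their own; 2 symbols carried by several IDs were taken at the ID with most counts. No library looked like a second copy of another: counts differed beyond sampling noise in all 24 pairs within groups. Code was tested on simulated counts. Depth ranged from 39766260 to 66852397 counts per library. What share counting error and the spread between libraries each had in the precision was not tested.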

Additional observations from a re-analysis of the deposited data

Results flagged for a closer look

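Of 188 groups of 4 values checked, 15 held a library whose gap to the nearest other exceeded Dixon's 95% critical value. Chance alone flags about 1 in 20 where values are independent and normal. Some checks share genes, such as Upk3a with the urothelium sum and Star with the adrenal sum, so the 15 are not independent. At 1 wk, the third library held 5 of them: summed urothelium markers of 22.31 CPM (2.12 to 2.66 in the other 3), Upk3a at 6.177 CPM (0.391 to 0.625), Havcr1 at 10.67 CPM (2.15 to 3.3), Jchain, the immunoglobulin joining chain, at 2.45 CPM (0.464 to 0.742) and Igkc at 20.29 CPM (2.58 to 5.06). The fourth had Slc9a3 at 134.9 CPM (73.8 to 82.7) and Ndufs3, a respiratory complex I subunit, at 176.3 CPM (239.9 to 252). The first had summed adrenal markers of 2.884 CPM (0.302 to 0.383) and Star, which imports cholesterol for steroid synthesis, at 1.265 CPM (0.262 to 0.357), and the second had Cfd at 1.566 CPM (0.101 to 0.222).

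At 2 wk, the second library had a total of 66850000 counts (43600000 to 46230000 in the other 3). The fourth had Per1 at 37.76 CPM (14.5 to 16.6), and the first had Cfd at 13.91 CPM (0.0593 to 0.704). The third had Akr1b3 at 53.28 CPM (35.8 to 37.9) and Star at 0.4859 CPM (0.311 to 0.339). What sets these libraries apart was not tested.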

How the results depend on the processing

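The count of calls was 0 in every fit run except DESeq2, with 4, and voom, with 1; the cause was not tested. The 738 genes at an unadjusted p under 0.05 became 2322 by voom, 1196 without a filter (28926 genes tested) and 433 with the 8 libraries alone (15534 genes, fewer samples); leaving out 1 library gave 449 (without the third 1 wk library) to 2785 (without the fourth), with 479 without the second 1 wk and 1583 without the third 2 wk library, and 0 calls each. The replicate block gave 948 such genes and 0 calls; same-numbered libraries had correlations of 0.109, -0.239, 0.228 and -0.104, 2 of 4 correlated best with their own number, and no label ties the numbers, so they were not taken as pairs. Over alternatives, log2 fold changes of named genes kept direction and side of the threshold in 1365 cases, reversed in 15 and gained a call in 5, the DESeq2 and voom calls. When 1 library was left out, Adgre1 ranged from -0.088 to 0.23 (also -0.087 without the first and -0.0086 without the second 1 wk library), Slc9a3 from -0.21 to 0.11, Havcr1 from -0.68 to 0.33, Ren1 from -0.046 to 0.36, Slc12a1 from -0.30 to 0.080 (0.036 without the fourth 1 wk library), Star from -0.84 to 0.24 and Cfd from -0.93 to 4.50. With the first 2 wk and the third 1 wk library both left out, an alternative chosen after seeing the data, Lcn2 was at 0.033, Havcr1 0.36, Ren1 -0.13, Upk3a 0.10 and Cfd -1.23. List medians moved by less than the spread between libraries in 799 cases and by more in 15. For lymphocyte and urothelium genes at under 1 CPM, counting error limits the values.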
